A study of Homo sapiens with 16 samples.

Results

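The genes described here are 46 genes of the DNA replication machinery, measured by RNA sequencing in DU145, a human cell line that was established from a prostate cancer. They were chosen by name, from a list of replication factors, and each symbol was matched to 1 Ensembl gene of the deposited count table. The table holds 64792 genes, of which 14690 had enough counts to be tested, and all 46 replication genes were among those tested. The 16 libraries form 4 groups of 4 replicates, which the labels call independent: control cells (Ctrl), cells given lactate (Lactate), cells given I-BET762 (iBET), and cells given lactate together with I-BET762 (Lactate_iBET). I-BET762 is an inhibitor of the BET bromodomain proteins, which bind acetylated histones and help to drive transcription, and lactate is the end product of glycolysis. The labels give no dose, no duration and no vehicle for the controls, and all groups are of the same cell line, so the results hold for 1 line only. The cell line field of the Lactate_iBET libraries counts up from one library to the next while their titles all name DU145, and the titles were followed here.

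Replication is prepared in G1, when the origin recognition complex (ORC1, ORC6), CDC6 and CDT1 load the ring of MCM2 to MCM7 onto DNA. Geminin (GMNN) blocks this step once it is done. In S phase CDC45 and the GINS proteins turn the ring into an active helicase with the help of MCM10, and WDHD1 ties the helicase to DNA polymerase alpha. Polymerase alpha and primase (POLA1, POLA2, PRIM1, PRIM2) lay down primers, the RFC complex loads the sliding clamp PCNA, and polymerases delta and epsilon (POLD and POLE genes) extend the strands. RPA coats single-stranded DNA, FEN1 and LIG1 finish and join the lagging strand, CHAF1A and CHAF1B deposit histones behind the fork, and RRM1, RRM2, TYMS, TK1 and DUT supply or protect the nucleotide pools. Many of these genes are transcribed in a burst at the start of S phase under E2F factors, so in a bulk sample fewer cells in S phase and less transcript per cell cannot be told apart.

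The upstream sequences of some genes that turned out lower with lactate are printed to show which of them carry the motifs of S-phase transcription. A promoter window from RefSeq (GRCh38.p14, 250 bases before and 50 after the annotated start) was found for 39 of the 46 genes, but not for MCM4, MCM5, POLD3, RPA2, RPA3, DSCC1 and GINS4. Both strands were searched for 2 E2F-type motifs (TTCCCGC and TTGGCGC), for the CCAAT box (CCAAT) and for the cell cycle homology region (TTTGAA and TTCGAA). The motif TTGGCGC can share bases with a CCAAT box on the other strand. Below, capitals mark these matches, each line runs 5′ to 3′ on the gene's own strand, and bases inside the gene as GENCODE 29 draws it were left off.
MCM6 (chr2:135876444-135876693, minus strand): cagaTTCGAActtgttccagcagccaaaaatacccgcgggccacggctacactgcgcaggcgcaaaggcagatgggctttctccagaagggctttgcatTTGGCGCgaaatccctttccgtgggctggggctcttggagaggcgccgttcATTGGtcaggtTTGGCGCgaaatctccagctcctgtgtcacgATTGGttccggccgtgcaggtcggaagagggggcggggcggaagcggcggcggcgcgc
MCM3 (chr6:52284882-52284992, minus strand): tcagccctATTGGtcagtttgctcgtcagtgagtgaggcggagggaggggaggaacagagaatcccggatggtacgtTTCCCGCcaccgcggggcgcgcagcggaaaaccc
MCM10 (chr10:13161308-13161553, plus strand): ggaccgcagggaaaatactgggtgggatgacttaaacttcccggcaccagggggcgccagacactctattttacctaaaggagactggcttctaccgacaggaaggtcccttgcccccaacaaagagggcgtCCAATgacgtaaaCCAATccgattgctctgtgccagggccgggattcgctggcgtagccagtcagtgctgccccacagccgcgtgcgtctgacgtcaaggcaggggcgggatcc
WDHD1 (chr14:55027106-55027349, minus strand): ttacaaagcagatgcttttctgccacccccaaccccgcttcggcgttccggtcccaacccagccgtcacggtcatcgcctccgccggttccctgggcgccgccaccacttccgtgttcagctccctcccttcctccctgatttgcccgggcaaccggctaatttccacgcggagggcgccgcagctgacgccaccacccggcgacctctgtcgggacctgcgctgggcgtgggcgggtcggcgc
MCM6 carries 2 E2F-type matches, 151 and 89 bases before its start, with 2 CCAAT boxes and 1 cell cycle homology match. In MCM3 the stretch shows 1 CCAAT box and an E2F-type match 173 bases before the start. The part left off holds another E2F-type match, 23 bases before the start, and CCAAT boxes 120 and 84 bases before it. MCM10 shows 2 CCAAT boxes, 118 and 105 bases before its start, and no E2F-type match. In WDHD1 none of the motifs lies in the stretch shown, but its window has 1 E2F-type match about 25 bases from the start. For shares, 1 window per gene was used, the first listed, though the 39 genes had 52 windows. An E2F-type match stood in 25 of these 39 windows (64.1%), against 9.33% of 27305 windows, also 1 per gene. RRM2, GMNN, DUT and TK1 count as without a match but have one in another window. None of them was called with lactate. A CCAAT box stood in 53.8% against 35.7%, and a cell cycle homology match in 5.13% against 16.6%. The 250 bases before the start had a median GC content of 65.2% in the 39 genes and 58.0% over all windows. The part of GC content in these shares was not tested. Of the 8 genes with a window that were lower with lactate, 6 had an E2F-type match, as did 19 of the 30 that were not called. These matches describe the letters only.

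The libraries held between 10711859 and 17173584 counts. Levels are given as CPM, the count of a gene relative to the library total, after scaling the library totals. The 5 epithelial markers summed to between 1899.8 and 2457.7 CPM in control, 2097.7 and 3349.9 in lactate, 2301.3 and 2493.9 with I-BET762 and 2299.4 and 3093.7 with both. In lactate against control 2 of the 5 were higher, KRT8 (0.49) and KRT19 (0.76, log2 fold change). The 5 fibroblast markers summed to between 3.94 and 4.82 CPM in control, 5.08 and 8.86 in lactate, 4.66 and 7.84 with I-BET762 and 5.16 and 10.2 with both. Only COL1A1, a collagen, had enough counts to be tested among them, and it was higher in lactate (0.82, edgeR adjusted p 0.0247) and in both treatments (0.92, edgeR adjusted p 0.0149) against control. Leukocyte and endothelial markers summed to at most 2.75 and 1.73 CPM in each library, and DCN and CD3E, which mark fibroblasts and T cells, were at 0 in every library. The part of these markers in the results was not tested. HEXIM1, a gene that BET inhibitors are known to raise, served as a check of the labels. It was at 75.7, 135, 70.0 and 77.4 CPM in control replicates 1 to 4 and at 149, 89.6, 113 and 114 CPM in I-BET762 replicates 1 to 4. The library labelled control replicate 2 was thus above the library labelled I-BET762 replicate 2, against the labels, and results that change without this pair (the HEXIM1-discordant pair) are given both ways.

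Lactate against control called 10 of the 46 genes, where 23.7% of all genes tested were called: 9 were lower and 1 was higher. The lower genes were ORC1, MCM3, MCM4, MCM6, MCM10, RFC3, PRIM2, WDHD1 and CHAF1B, and the higher one was POLA2. Adjusted p-values are from edgeR's quasi-likelihood test with Benjamini-Hochberg adjustment over all genes tested, and a gene was called at an adjusted p under 0.05. The 9 lower genes are 19.6% of the 46, beside 10.1% of all genes tested, and the 1 higher gene is 2.17%, beside 13.6%. The median log2 fold change was -0.16 over the 46 genes and 0.03 over all genes. In 10 genes every lactate library lay below every control library (9.12% of all genes did so), and in 0 every lactate library lay above (10.9%). With the HEXIM1-discordant pair left out, the call stayed for only 3 genes, MCM3 and WDHD1 (lower) and POLA2 (higher), the median was -0.05, and 6.67% of all genes were lower.

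**Figure D1:**
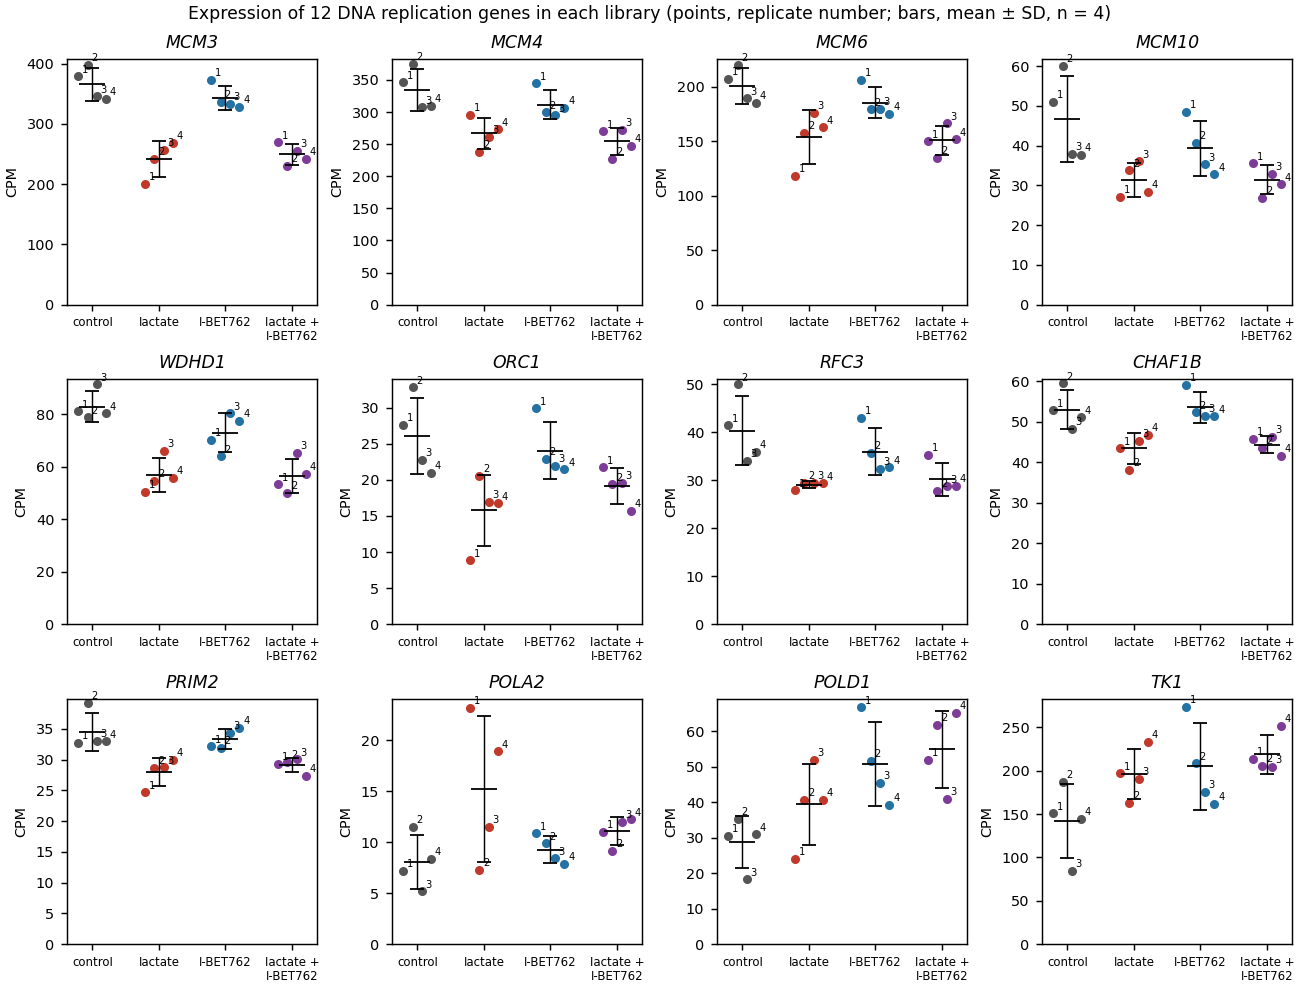
Expression of 12 replication genes in each library, as CPM on a linear axis from 0; points are libraries with their replicate number, and bars are the group mean ± SD (n = 4). In the MCM3 panel the 4 lactate libraries lie between 200.3 and 268 CPM, all under the controls at 341 to 398 CPM.

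Among the 5 licensing genes, ORC1, the largest subunit of the origin recognition complex, fell with lactate. ORC1 was at 27.7, 32.8, 22.8 and 20.99 CPM in control and at 8.85, 20.6, 16.9 and 16.7 CPM with lactate. The groups did not overlap, and lactate replicate 1 was far under its group. ORC1 thus had a log2 fold change of -0.71 ± 0.21 (SE), with an edgeR adjusted p of 0.0214. ORC1 was at 29.9, 22.9, 21.9 and 21.4 CPM with I-BET762 and at 21.7, 19.4, 19.6 and 15.7 CPM with both treatments, and both groups overlapped the controls. CDT1, which loads the MCM ring together with CDC6, had a higher mean with lactate but was not called. CDT1 was at 21.1, 18.4, 15.3 and 23.5 CPM in control and at 26.4, 20.5, 28.8 and 27.3 CPM with lactate, and the groups overlapped. Its log2 fold change was 0.40 ± 0.19 (SE; edgeR adjusted p 0.123), and CDT1 is among the most GC-rich genes of the set, a point taken up with the GC values. The inhibitor of CDT1, geminin, was not called either. GMNN was at 59.7, 65.2, 47.7 and 57.5 CPM in control and at 81.04, 46.8, 45.8 and 63.6 CPM with lactate, and lactate replicate 1 was the highest of all. GMNN was at 65.00, 62.5, 55.9 and 60.1 CPM with I-BET762 and at 57.7, 50.1, 54.9 and 52.7 CPM with both treatments. ORC6 and CDC6 had log2 fold changes of -0.20 and -0.27 and were not called.

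The helicase genes held 4 of the 9 lower genes. MCM3, a subunit of the ring (chr6:52264009-52284881 of GRCh38 in GENCODE 29, minus strand), had the smallest p of the 46. MCM3 was at 379, 398, 346 and 341 CPM in control and at 200.3, 242, 257 and 268 CPM with lactate. Every lactate library was well under every control library. The log2 fold change was -0.60 ± 0.10 (SE), a level 0.662 times that of control, with an edgeR adjusted p of 0.00127. The call for MCM3 held in all 26 alternative settings tried. MCM4 and MCM6, 2 more ring subunits, also fell without overlap. MCM4 was at 346, 375, 307 and 309.7 CPM in control and at 296, 238, 261 and 273 CPM with lactate. MCM6 was at 207, 220.2, 189 and 185 CPM in control and at 118, 158, 176 and 163 CPM with lactate. Their log2 fold changes were -0.33 ± 0.10 and -0.38 ± 0.12 (SE), with edgeR adjusted p-values of 0.0302 and 0.0269. MCM10, which helps to start the helicase, fell as well. MCM10 was at 50.98, 60.1, 37.9 and 37.7 CPM in control and at 27.1, 33.8, 36.1 and 28.4 CPM with lactate. Control replicates 3 and 4 were only just above the highest lactate library. Its log2 fold change was -0.57 ± 0.17 (SE; edgeR adjusted p 0.0211). The other ring subunits were not called: MCM7 had -0.26 ± 0.12 (SE; edgeR adjusted p 0.103), while MCM2 had 0.03 and MCM5 0.13. CDC45 and the 4 GINS genes ranged from -0.20 to 0.10.

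Because the ring holds its 6 subunits in equal number, their transcript levels were also compared per kb of exon. MCM3 made up 33.6% ± 1.13 (SD, n = 4) of the summed CPM per kb of MCM2 to MCM7 in control and 28.1% ± 1.06 in lactate. With I-BET762 its share was 32.5% ± 1.17, and with both treatments 29.6% ± 0.857. No library with lactate, with or without I-BET762, reached the lowest share of a library without it. MCM2 took a larger share with lactate, at 11.5% ± 0.511 against 8.93% ± 0.817 in control. MCM5 was the lowest of the 6 per kb in the mean of every group. These shares were not tested. Part of MCM2 overlaps an antisense gene (22.7% of its exon bases) and part of MCM7 overlaps AP4M1 on the other strand (8.94%). The library kit keeps the strand, per the labels, but the strand setting of the counting is not given in the sources used here.

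**Figure D2:**
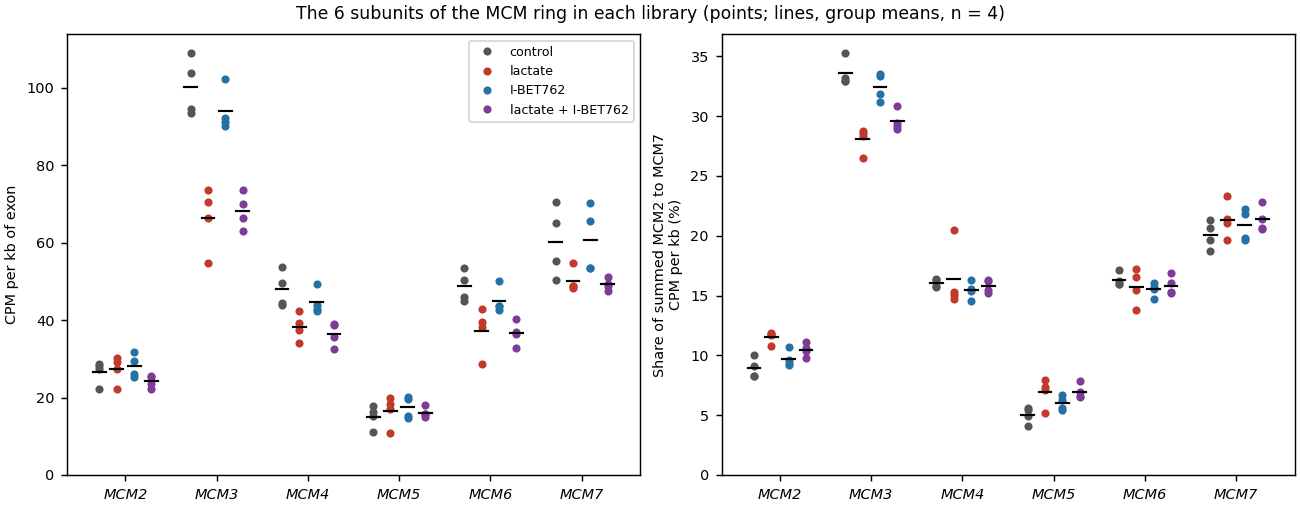
The 6 subunits of the MCM ring in each library: left, CPM per kb of exon; right, each subunit's share (%) of the summed CPM per kb of the 6. Points are libraries and lines are group means (n = 4); the MCM3 share averages 33.6% in control and 28.1% in lactate.

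In the clamp and clamp loader genes only RFC3, a small subunit of the loader, was called in this comparison. RFC3 was at 41.5, 50.00, 34.02 and 35.96 CPM in control and at 27.96, 29.6, 29.5 and 29.4 CPM with lactate. The 4 lactate libraries were nearly equal, and the controls were spread above them. For RFC3 the log2 fold change was -0.47 ± 0.13 (SE; edgeR adjusted p 0.0180). RFC5, another loader subunit, overlapped between groups. RFC5 was at 52.00, 60.5, 43.6 and 42.3 CPM in control and at 38.6, 45.6, 45.6 and 44.4 CPM with lactate. RFC5 was at 60.02, 47.1, 40.9 and 43.8 CPM with I-BET762 and at 48.5, 44.7, 48.5 and 42.9 CPM with both treatments. RFC5 had a log2 fold change of -0.19 ± 0.13 (SE; edgeR adjusted p 0.312). PCNA, the clamp and the member with the highest level per kb (113 CPM per kb over all libraries), was spread widely with lactate. PCNA was at 170.2, 202, 133 and 159 CPM in control and at 252, 124, 131 and 182 CPM with lactate. The groups overlapped fully, with a log2 fold change of 0.05 ± 0.18 (SE; edgeR adjusted p 0.855).

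The polymerase genes went both ways. WDHD1 (chr14:54938950-55027105 of GRCh38, minus strand), which couples helicase and polymerase alpha, fell. WDHD1 was at 81.2, 78.9, 91.5 and 80.4 CPM in control and at 50.6, 54.8, 66.1 and 55.9 CPM with lactate. The groups did not overlap. The log2 fold change was -0.54 ± 0.11 (SE; edgeR adjusted p 0.00390), and this call too held in all 26 alternatives. PRIM2, the large primase subunit, fell by less. PRIM2 was at 32.7, 39.2, 33.04 and 32.98 CPM in control and at 24.7, 28.7, 28.8 and 29.99 CPM with lactate. Control replicate 2 stood above the other controls, and the groups did not overlap. PRIM2 had a log2 fold change of -0.30 ± 0.10 (SE; edgeR adjusted p 0.0396). POLA2, the second subunit of polymerase alpha, was the only gene that rose. POLA2 was at 7.18, 11.5, 5.19 and 8.37 CPM in control and at 23.2, 7.29, 11.5 and 18.9 CPM with lactate. Lactate replicates 1 and 4 were high, and lactate replicates 2 and 3 lay within the range of the controls. For POLA2 the log2 fold change was 0.91 ± 0.29 (SE; edgeR adjusted p 0.0323). POLA2 had the lowest level per kb of the 46 genes (1.91 CPM per kb), and 35.1% of its exon bases are shared with AP000944.2 on the same strand, so its counts are uncertain. Without lactate replicates 1 and 4 POLA2 was not called. POLA2 was at 10.9, 9.90, 8.43 and 7.89 CPM with I-BET762 and at 11.00, 9.14, 11.97 and 12.2 CPM with both treatments, a range that overlapped the controls. Its partner POLA1 had a log2 fold change of -0.38 ± 0.17 (SE; edgeR adjusted p 0.0983).

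Of the genes for strand protection, joining and chromatin assembly, CHAF1B, a subunit of the histone chaperone CAF-1, fell. CHAF1B was at 52.8, 59.5, 48.3 and 51.1 CPM in control and at 43.4, 38.1, 45.3 and 46.8 CPM with lactate. The groups did not overlap, though the gap between them was small. Its log2 fold change was -0.28 ± 0.10 (SE; edgeR adjusted p 0.0467), and it was called in 6 of 26 alternatives. RPA3, the smallest RPA subunit, had a higher mean with lactate that came from a few libraries. RPA3 was at 44.8, 48.2, 39.9 and 48.4 CPM in control and at 164, 38.3, 46.3 and 77.7 CPM with lactate. Lactate replicate 1 was far above all others and replicate 4 was next, while lactate replicates 2 and 3 were at the control level or under it. The log2 fold change was 0.84 ± 0.30 (SE; edgeR adjusted p 0.0518), and without those 2 libraries it was -0.09. These libraries also had the lowest correlation of all genes' deviations with exon length (rho -0.397 and -0.416), whose part in the result was not tested. RPA3 was at 50.4, 48.4, 42.3 and 45.9 CPM with I-BET762 and at 52.7, 49.4, 49.9 and 51.6 CPM with both treatments, without a library that stood apart. RPA1 had -0.21 ± 0.09 (SE; edgeR adjusted p 0.0974), with no overlap between groups.

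None of the 5 nucleotide supply genes was called with lactate by edgeR, and 1 of them had an unadjusted p under 0.05. That gene was TK1, the thymidine kinase of the salvage pathway. TK1 was at 151, 187, 84.4 and 145 CPM in control and at 197, 163, 191 and 233 CPM with lactate. Control replicate 3 was the lowest by a wide margin, and the groups overlapped. Its log2 fold change was 0.47 ± 0.20 (SE; edgeR adjusted p 0.0931). RRM1, the large subunit of ribonucleotide reductase, had lower values in most lactate libraries. RRM1 was at 154, 155, 137 and 133 CPM in control and at 147, 103, 113 and 130.1 CPM with lactate. RRM1 had a log2 fold change of -0.23 ± 0.11 (SE; edgeR adjusted p 0.133). TYMS, which makes thymidylate, did not separate. TYMS was at 222, 309.8, 194 and 201 CPM in control and at 293, 204, 210.3 and 271 CPM with lactate. TYMS was at 287, 208, 219.9 and 228 CPM with I-BET762 and at 273, 239.7, 267 and 248 CPM with both treatments. Reads of TYMS may be shared with ENOSF1, which overlaps 39.1% of its exon bases on the other strand.

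**Figure D3:**
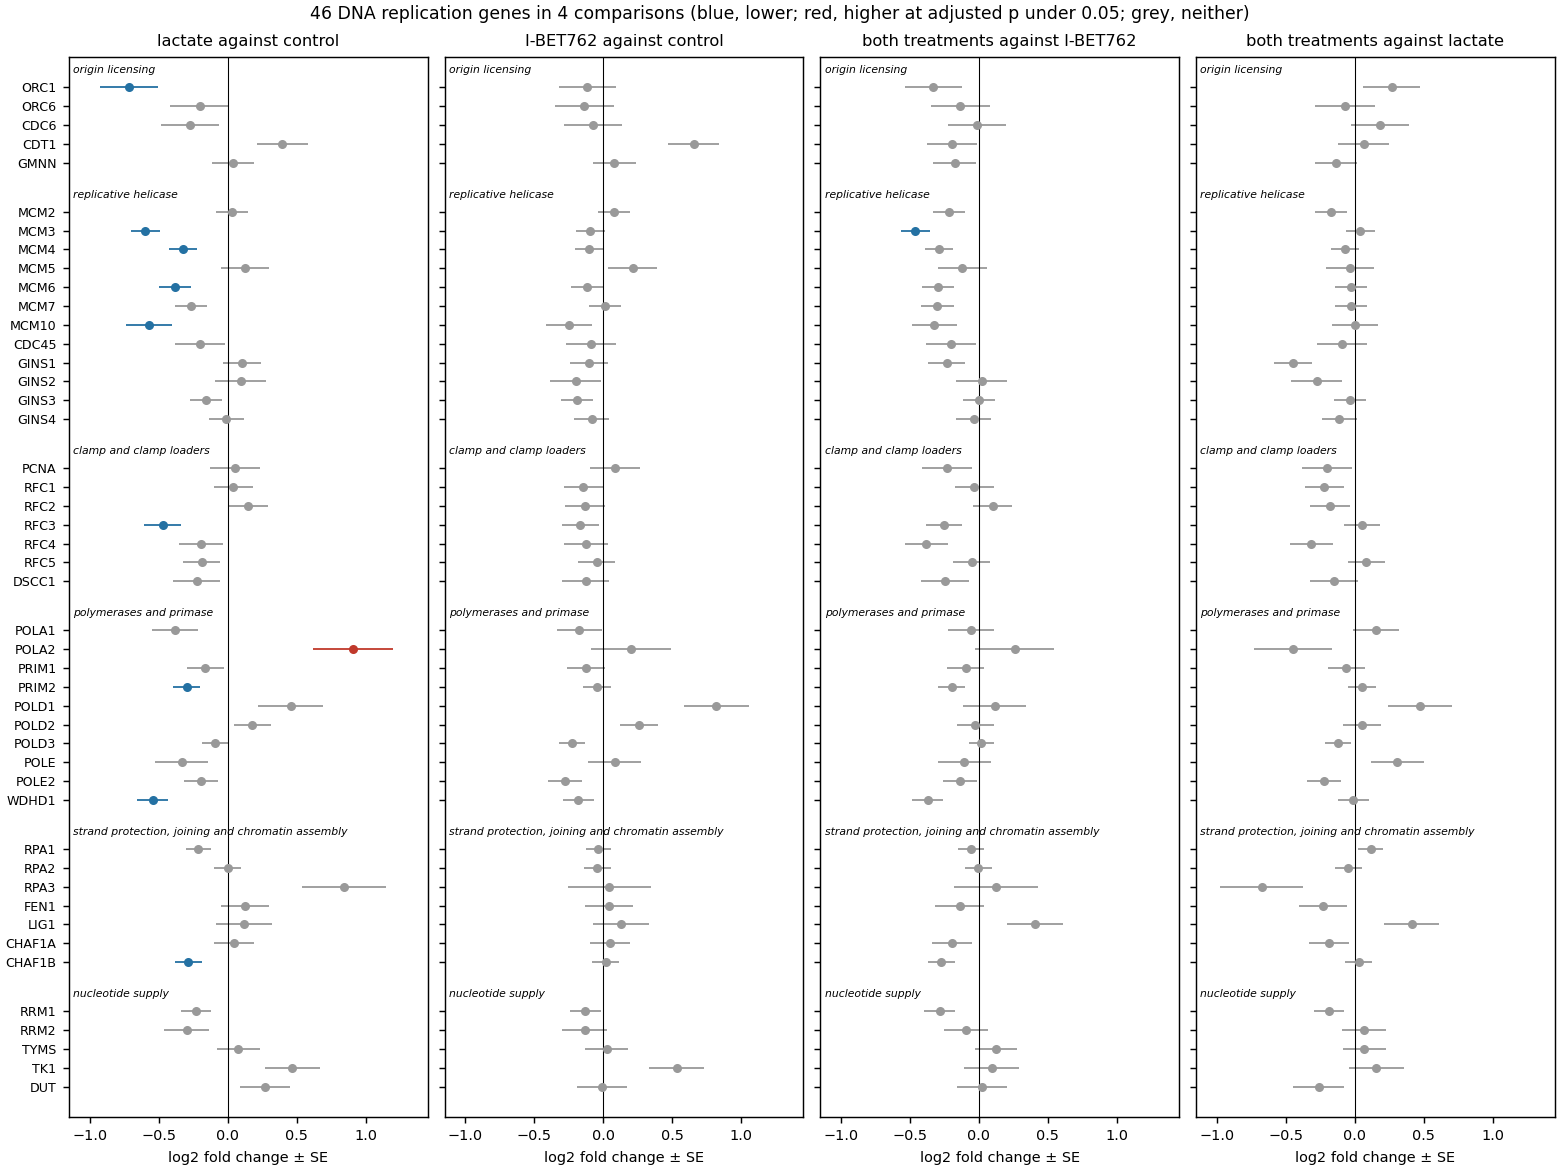
Log2 fold change ± SE of the 46 genes, ordered by role, in 4 comparisons; blue points are lower and red points higher at an edgeR adjusted p under 0.05, and grey points were not called. Lactate against control holds 9 blue points and 1 red point, and the panel of both treatments against I-BET762 holds 1 blue point, MCM3.

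I-BET762 alone called 0 of the 46 genes by edgeR, where it called 0.442% of all genes, each of them higher. At an unadjusted p under 0.05 there were 5 genes, and DESeq2 called 2, CDT1 and POLD1. Shares of all genes under these 2 rules are not given, in any comparison, so such counts do not set the 46 genes apart. The median log2 fold change was -0.08 over the 46 genes and -0.03 over all. CDT1 had the smallest p. CDT1 was at 21.1, 18.4, 15.3 and 23.5 CPM in control and at 37.4, 33.9, 27.1 and 25.1 CPM with I-BET762. Every I-BET762 library was above every control library, which held for 2 of the 46 genes (7.73% of all genes); the reverse held for another 2, GINS3 and POLD3 (3.04% of all genes). CDT1 had a log2 fold change of 0.66 ± 0.19 (SE), with an edgeR adjusted p of 0.0953. POLD1, the catalytic subunit of polymerase delta, had the largest log2 fold change of the 46 genes. POLD1 was at 30.6, 35.3, 18.3 and 30.99 CPM in control and at 66.8, 51.7, 45.4 and 39.3 CPM with I-BET762. Here too the groups did not overlap, and the log2 fold change was 0.82 ± 0.23 (SE; edgeR adjusted p 0.0996). TK1 overlapped the controls. TK1 was at 274, 208, 176 and 162 CPM with I-BET762. Its log2 fold change was 0.53 ± 0.20 (SE; edgeR adjusted p 0.241). MCM3 was not called either. MCM3 was at 374, 336, 333 and 329 CPM with I-BET762, overlapping the controls, with a log2 fold change of -0.09 ± 0.10 (SE) and a 95% interval from -0.32 to 0.13.

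Lactate in the presence of I-BET762, that is both treatments against I-BET762, called 1 gene, where 4.9% of all genes were called. That gene was MCM3, which was lower (2.17% of the 46, beside 1.57% of all genes), and 0 were higher (3.34% of all genes). With the correction for GC content described below, 8.7% of the 46 genes were lower, beside 2.41% of all genes. MCM3 was at 269, 230.2, 255 and 242 CPM with both treatments, all under the I-BET762 libraries given above. The log2 fold change was -0.46 ± 0.10 (SE; edgeR adjusted p 0.0155). The call held in 22 of the 26 alternatives, over which the log2 fold change ran from -0.52 to -0.42. The call was lost, with 0 of the 46 genes called, without a filter on low counts. The same happened when I-BET762 replicate 1, or replicate 2 or replicate 4 of both treatments, was left out. The median over the 46 genes was -0.13, beside 0.00495 over all genes. In 10 of the 46 genes the groups did not overlap with lower values (11.3% of all genes), and in 0 with higher values (11.2% of all genes). WDHD1 was the next gene by p. WDHD1 was at 70.4, 64.00, 80.4 and 77.6 CPM with I-BET762 and at 53.4, 50.1, 65.4 and 57.4 CPM with both treatments. The highest library of both treatments was above the lowest I-BET762 library, and the log2 fold change was -0.37 ± 0.11 (SE; edgeR adjusted p 0.0664).

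Other genes in this comparison had lower values without passing the test. MCM4 was at 345, 299.8, 295 and 307 CPM with I-BET762 and at 269.9, 227, 272 and 248 CPM with both treatments. RFC4 was at 79.1, 84.2, 92.3 and 89.1 CPM with I-BET762 and at 68.00, 59.2, 70.9 and 66.8 CPM with both treatments. Both MCM4 and RFC4, a loader subunit, separated fully, with log2 fold changes of -0.29 ± 0.10 and -0.38 ± 0.16 (SE) and edgeR adjusted p-values of 0.111 and 0.185. CHAF1B was at 59.1, 52.3, 51.4 and 51.3 CPM with I-BET762 and at 45.7, 43.6, 46.3 and 41.6 CPM with both treatments. RRM1 was at 141, 137, 123 and 128 CPM with I-BET762 and at 108, 102, 120.5 and 103 CPM with both treatments. CHAF1B and RRM1 separated as well, with log2 fold changes of -0.27 ± 0.10 and -0.29 ± 0.11 (SE; edgeR adjusted p 0.128 and 0.152). PRIM2 was at 32.2, 31.96, 34.3 and 35.2 CPM with I-BET762 and at 29.4, 29.6, 30.1 and 27.4 CPM with both treatments. RFC3 was at 43.1, 35.7, 32.4 and 32.8 CPM with I-BET762 and at 35.3, 27.9, 28.8 and 28.9 CPM with both treatments. PRIM2 separated and RFC3 did not, since replicate 1 of both treatments lay above the lowest I-BET762 library. MCM6 was at 206, 179, 179.8 and 175 CPM with I-BET762 and at 149.8, 135, 166 and 152 CPM with both treatments. MCM10 was at 48.5, 40.8, 35.3 and 32.8 CPM with I-BET762 and at 35.5, 26.9, 32.95 and 30.3 CPM with both treatments. MCM6 separated and MCM10 overlapped. LIG1 is the ligase of the lagging strand. LIG1 was at 38.5, 25.4, 25.1 and 25.3 CPM with I-BET762 and at 39.8, 39.03, 33.8 and 38.5 CPM with both treatments. LIG1 was at 27.4, 37.4, 18.3 and 21.4 CPM in control and at 21.05, 27.7, 32.5 and 32.00 CPM with lactate. I-BET762 replicate 1 stood apart at the level of the combined treatment, and the log2 fold change was 0.41 ± 0.20 (SE; edgeR adjusted p 0.283).

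I-BET762 in the presence of lactate, that is both treatments against lactate, called 0 of the 46 genes by edgeR (0% of all genes), with 2 at an unadjusted p under 0.05 and 0 by DESeq2. The groups separated for 1 gene with lower values, POLE2 (3.78% of all genes), and for 1 with higher values, LIG1 (3.82% of all genes). The smallest p was that of GINS1, a subunit of the active helicase, at -0.45 ± 0.14 (SE; edgeR adjusted p 0.232). MCM3 had 0.04 ± 0.10 (SE), with a 95% interval from -0.18 to 0.27. The difference between the effect of lactate with and without I-BET762, tested as an interaction, called 0 genes by edgeR (0% of all genes) and 0 by DESeq2, with 1 at an unadjusted p under 0.05. That gene was CDT1, at -0.59 ± 0.26 (SE; edgeR adjusted p 0.700). For MCM3 the interaction was 0.14 ± 0.14 (SE), with a 95% interval from -0.18 to 0.45, and for WDHD1 it was 0.17 ± 0.16 (SE).

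Both treatments against control called 11 genes, where 20.7% of all genes were called. It called 9 genes as lower (19.6% of the 46, beside 7.72% of all genes) and 2 as higher (4.35%, beside 13% of all genes). In 13 genes every library of both treatments lay below every control (14.8% of all genes), and in 3, POLD1, RPA3 and TK1, every one lay above (16.5%). This comparison shares its controls with the others, so its values are set beside theirs and not counted as support. The lower genes were MCM3 (-0.55), MCM4 (-0.40), MCM6 (-0.41), MCM10 (-0.57), RFC3 (-0.42), RFC4 (-0.51), POLE2 (-0.41), WDHD1 (-0.55) and RRM1 (-0.42), with log2 fold changes in brackets. POLE2, a subunit of polymerase epsilon, was called here and not with lactate alone. POLE2 was at 66.1, 63.6, 48.8 and 53.5 CPM in control and at 44.6, 40.3, 43.7 and 45.4 CPM with both treatments. RFC4 was at 82.6, 81.7, 107 and 106 CPM in control and at 109, 56.8, 72.9 and 91.1 CPM with lactate. Both treatments against lactate gave POLE2 -0.22 ± 0.12 (SE; edgeR adjusted p 0.369), so a difference between the 2 treated groups was not shown. The edgeR adjusted p-values of both treatments against control were 0.0250 for POLE2 and 0.0312 for RFC4. The higher genes were POLD1 and TK1. POLD1 was at 24.00, 40.8, 51.97 and 40.7 CPM with lactate, which overlapped the controls. POLD1 was at 51.9, 61.7, 41.00 and 65.2 CPM with both treatments. TK1 was at 214, 205, 204 and 252 CPM with both treatments. Every one of these libraries was above every control, with log2 fold changes of 0.93 ± 0.23 and 0.63 ± 0.20 (SE) and edgeR adjusted p-values of 0.0104 and 0.0347. With the HEXIM1-discordant pair left out, MCM3, MCM4, RFC4, WDHD1 and RRM1 were lower and POLD1, LIG1 and TK1 higher. The share of all genes called without this pair is not given for this comparison. These calls can therefore not be read as particular to the 46 genes.

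Of the 31 genes that were never called, those not yet described had the following values. In lactate against control the loader subunits RFC1 and RFC2 had log2 fold changes of 0.04 and 0.15, and DSCC1, which belongs to an alternative loader, had -0.23. PRIM1, the catalytic primase subunit, had -0.16, and the delta subunits POLD2 and POLD3 had 0.18 and -0.09. POLE, the catalytic subunit of polymerase epsilon, had -0.33. FEN1, the flap nuclease, had 0.13, RPA2 had -0.000367 and CHAF1A, the partner of CHAF1B, had 0.04. RRM2, the small subunit of ribonucleotide reductase, had -0.30 and DUT, which removes dUTP, had 0.27. RRM2 shares 20.2% of its exon bases with AC007240.1 on the same strand, and PRIM1 shares 14.85% with AC117378.1. The counts of RRM2 and PRIM1 are therefore uncertain. The helicase activators GINS2, GINS3 and GINS4 had 0.09, -0.15 and -0.01. None of these passed the test, and for each of them the lactate and control libraries overlapped.

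Per kb of exon, averaged over the 16 libraries, PCNA was followed by TK1 (102 CPM per kb), TYMS (98.1) and MCM3 (82.2). MCM7 (55.1) and FEN1 (53.0) came next, and MCM6, MCM4 and RPA1 had nearly equal levels of 41.9, 41.9 and 41.6 CPM per kb. These levels use the full length of all annotated exons, and the exons that DU145 cells use were not determined.

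Control replicate 2 had the highest control value for 30 of the 46 genes (30.5% of all genes) and control replicate 3 the lowest for 27 (28.2% of all genes). I-BET762 replicate 1 had the highest value of its group for 37 genes (28.1% of all genes), and replicate 2 of both treatments the lowest for 29 (21.3% of all genes). In lactate, replicate 1 was the highest library for 17 genes and the lowest for 16, against 36.4% and 41.1% of all genes, and replicate 2 was the lowest for 25 (26.8% of all genes). The summed level of the 46 genes was 4369 ± 495 CPM in control, 4051 ± 357 in lactate, 4340.0 ± 402 with I-BET762 and 3929.6 ± 162 with both (SD, n = 4), so the group means of the sum differed by less than the control SD.

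**Figure D4:**
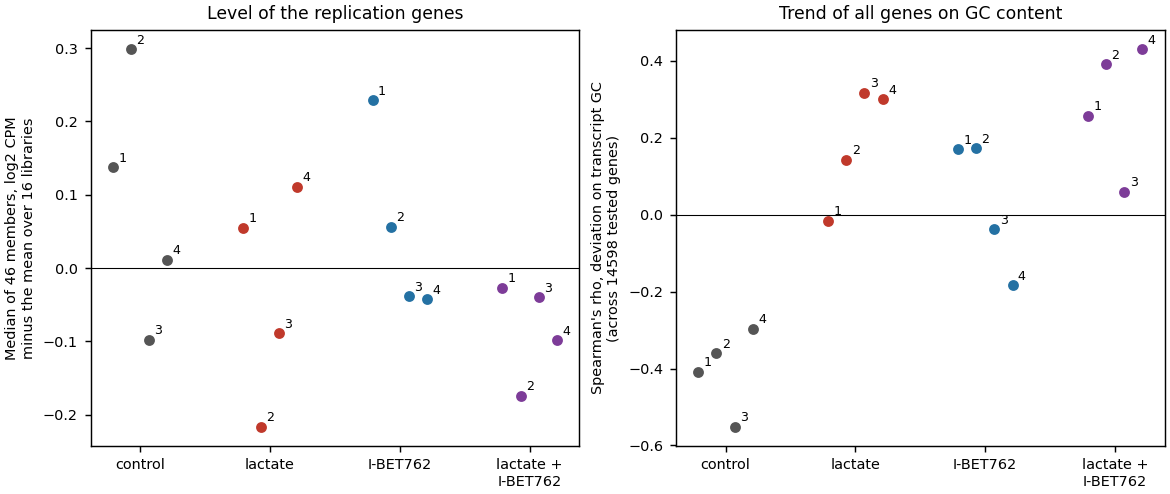
Left, the median over the 46 genes of log2 CPM minus each gene's mean over the 16 libraries; right, Spearman's rho of all genes' deviations on transcript GC content. Points are libraries with their replicate number; the left values overlap between control and lactate, while the control libraries have the lowest rho values, averaging -0.404.

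The GC content of the transcripts moved with the fold changes. Over all genes, the rho of the deviations on GC averaged -0.404 in control, 0.186 in lactate, 0.0302 with I-BET762 and 0.285 with both. Across the 46 genes the rho of the log2 fold change on GC was 0.442 in lactate against control, 0.699 in I-BET762 against control and 0.567 in both against control; these are descriptions across genes of the same libraries. The 9 genes lower with lactate had a GC content between 38.1 and 51.6%, while POLD1 had 65.0% and TK1 62.8%. With a correction of each library for GC content, MCM3, WDHD1 and ORC1 stayed lower in lactate against control, MCM7 was called as lower, and the other 7 of the 10 genes called without it were not called. The 4 corrected lower calls were 8.7% of the 46 genes, beside 6.82% of all genes. Those 7 genes had corrected log2 fold changes of -0.30 for MCM4, -0.27 for MCM6, -0.47 for MCM10, -0.33 for RFC3, -0.16 for PRIM2, -0.26 for CHAF1B and 0.80 for POLA2. In both against control the corrected calls were MCM2, MCM3, MCM7 and WDHD1, all lower (8.7% of the 46 genes and 5.21% of all genes). Neither POLD1 nor TK1 was called there. In both treatments against I-BET762 the rho of the log2 fold change on GC was 0.251 across the 46 genes. There the calls went from 1 without the correction to 4 with it, all lower (8.7%, beside 2.41% of all genes). The correction turned the log2 fold change of CDT1 in lactate against control to -0.28 and that of TK1 to -0.05. In I-BET762 against control the log2 fold change of CDT1 ran from 0.10 to 0.79 over the 26 alternatives and that of POLD1 from 0.27 to 0.93, and no gene at all was called with the GC correction. MCM3, with 51.6% GC, had a corrected log2 fold change of -0.63 in lactate against control.

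**Figure D5:**
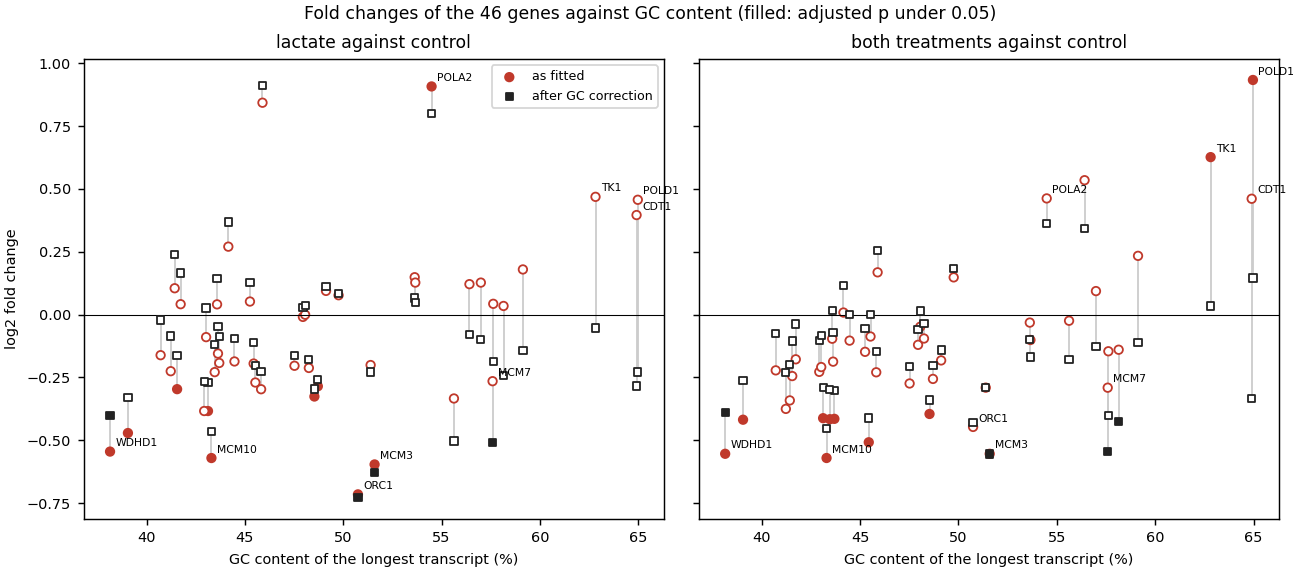
Log2 fold change of the 46 genes against the GC content of the longest transcript, as fitted (red circles) and after correction for GC content (black squares), joined by grey lines; filled marks have an edgeR adjusted p under 0.05. MCM3 and WDHD1 are filled before and after correction in both panels, while POLD1 and TK1 lose their filled mark on the right.

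The wider replication machinery also went both ways. Of 42 other replication genes, 13 (31%) were lower and 4 (9.52%) higher in lactate against control, where 10.1% of all genes were lower and 13.6% higher. Their median log2 fold change was -0.24, beside 0.03 over all genes. By p, the leading genes were POLD4, a small subunit of polymerase delta (log2 fold change 1.07 ± 0.22), DONSON, a helicase assembly factor (-0.40 ± 0.08), CDC7, the kinase that fires origins (-0.38 ± 0.09), ORC3 (-0.53 ± 0.13), ORC4 (-0.41 ± 0.10) and TOPBP1 (-0.67 ± 0.17), each ± SE. POLD4 was higher and the other 5 lower. With the GC correction the count was 3 lower and 1 higher, and the 7.14% that were lower lay near the 6.82% of all genes. Of 19 tested regulators of S-phase entry, 3 (15.8%, against 10.1% of all genes) were lower and 0 higher: RBL1, a pocket protein (-0.64), CCNE2, cyclin E2 (-0.67), and DTL, which targets CDT1 for destruction (-0.47). Next by p came CDC25A (-0.55), E2F8 (-0.61) and E2F3 (-0.35), which were not called (edgeR adjusted p 0.0830, 0.0854 and 0.0890). Of the 19 regulators 17 had a log2 fold change below 0, beside 47.6% of all genes, and 2 above 0. Their median was -0.27, beside 0.03 over all genes, and they ran from -0.67 (CCNE2) to 0.32 (E2F1). In both against control the lower regulators were TFDP1 (-0.31), DTL (-0.48) and SKP2 (-0.47), which is 15.8% beside 7.72% of all genes. With the GC correction 2 regulators were lower in lactate against control (10.5%, beside 6.82% of all genes). In both against control 1 was lower with it (5.26%, near the 5.21% of all genes). E2F1, the activator whose motif was searched, was not called. E2F1 was at 70.4, 79.4, 44.7 and 62.6 CPM in control and at 111, 64.6, 66.9 and 78.5 CPM with lactate, and the groups overlapped, with a log2 fold change of 0.32 ± 0.21 (SE; edgeR adjusted p 0.260). Over all comparisons 15 of the 46 genes were called at least once and 31 were never called.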

How the data were processed

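The deposited table gave raw counts per gene, which the authors made from single-end, 75-base reads of polyA RNA from 16 DU145 libraries; STAR 2.6.1c, DESeq and GRCh38.p12 are named in the submitters' processing notes, and of the counting program and its strand setting nothing is stated in these sources. Each library was assigned to its group by its title and treatment label. Counts were fitted with edgeR 4.0.16 (R 4.3.3, limma 3.58.1): filterByExpr (count of at least 10, total of at least 15) kept 14690 genes, library sizes were scaled by TMM, and 1 quasi-likelihood model with a mean for each of the 4 groups was fitted over all 16 libraries, leaving 12 residual degrees of freedom. P-values were adjusted by Benjamini-Hochberg over all genes kept. The SE is the log2 fold change divided by the square root of its F statistic. Gene positions, exon lengths and GC content came from GENCODE 29. The procedure was tested on simulated data. Alternatives were other size factors, other filters on low counts, DESeq2 1.42.0, the compared groups alone, a replicate block, corrections for GC content and exon length, and leaving libraries out. Leaving out lactate replicates 1 and 4 together, and the block with both corrections, were chosen after seeing the data.

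Values in all libraries are given for the 2 members of each role with the smallest p in lactate against control and the 2 in both treatments against I-BET762. Every called member, the member with the smallest p in a comparison without calls, MCM2 to MCM7, PCNA and E2F1 are also named. So are the 6 leading genes by p of each wider list in lactate against control. The members and lists were chosen with earlier results of these data known.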

Additional observations from a re-analysis of the deposited data

Results flagged for a closer look

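Of 88 groups of 4 libraries checked among the named genes, 6 had 1 library whose gap to its nearest neighbour exceeded the 95% critical value of Dixon's test, as a share of the group's range; chance gives about 1 in 20. I-BET762 replicate 1 was high for CHAF1B (59.1 CPM, the others at 51.3 to 52.3), LIG1 (38.5 CPM, the others at 25.1 to 25.4) and MCM6 (206 CPM, the others at 175 to 179.8). Control replicate 2 was high for PRIM2, at 39.2 CPM against 32.7 to 33.0. For RFC3, lactate replicate 1 was low, at 28.0 CPM against 29.4 to 29.6, and replicate 1 of both treatments was high, at 35.3 CPM against 27.9 to 28.9.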

How the results depend on the processing

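The number of the 46 genes called in lactate against control was 10; it was 2 with the compared groups alone, 4 with the GC correction, 4 with GC and exon length, 4 with the replicate block and GC correction, 6 with the block and both corrections, 3 without the HEXIM1-discordant pair, and 3 to 12 when 1 library was left out (3 without control replicate 1, 4 without control replicate 2, 5 without lactate replicate 4). For I-BET762 against control (0) it was 2 without a filter on low counts, with DESeq2, with the groups alone and without lactate replicates 1 and 4, and 0 to 1 with 1 library left out (1, POLD1, without lactate replicate 1). For both treatments against I-BET762 (1) it was 0 without a filter, 2 with DESeq2, 8 with the groups alone, 2 with the replicate block, 4 with GC, 4 with GC and length, 5 with block and GC, 6 with block and both corrections, 7 without lactate replicates 1 and 4, and 0 to 4 with 1 library left out (4 without lactate replicate 1). For both treatments against control (11) it was 7 without a filter, 4 with GC, 6 with GC and length, 7 with block and GC, 17 without lactate replicates 1 and 4, and 4 to 17 with 1 library left out (17 without lactate replicate 1, 6 without control replicate 1, and 4 and 5 without replicates 2 and 4 of both treatments). The share of all genes called moved too, given here in the order GC, GC and length, block and GC, block and both corrections. In lactate against control, 6.82, 8.09, 9.21 and 10.8% of all genes were lower. In both treatments against I-BET762 it was 2.41, 3.77, 3.42 and 5.11%, and in both treatments against control 5.21, 6.72, 6.84 and 8.82%. For most other settings this share is not given, so the counts there cannot be read as particular to the 46 genes. The replicate block alone gave 10 in lactate against control. Same-numbered libraries of different groups correlated with a median of 0.173 (24 pairs, 22 positive, 16 over 0.1), other pairs with a median of -0.0769. The lowest was -0.260 in the HEXIM1-discordant pair and -0.0287 without it. The own number was the best match in 24 of 48 cases, so whether the numbers pair the libraries is a hint from the data, not the design, and they were not treated as pairs. In lactate against control the log2 fold change of CDT1 turned to -0.28 with GC, -0.30 with GC and length, -0.28 with block and GC and -0.30 with block and both corrections; that of TK1 turned to -0.0529, -0.19, -0.05003 and -0.18; and that of RPA3 turned to -0.0930 without lactate replicates 1 and 4. The causes were not tested. MCM3 and WDHD1 kept their calls in lactate against control and in both treatments against control under all 26 alternatives.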
